A study of Mus musculus with 14 samples.

Results

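The 50 genes described here encode Wnt ligands, Frizzled receptors and their co-receptors, R-spondins with their receptors and the E3 ligases they act on, transcription factors and targets of the pathway, and inhibitors. The rule that chose them uses gene symbols and no expression values, and was applied to the 45777 genes of the count tables, where all 50 were found. The list of symbols was itself drawn up with earlier results of these data known. RNA was sequenced in bulk from mouse parotid gland (PG), sublingual gland (SLG) and submandibular gland (SMG), as tissue and as organoids, which are epithelial cultures grown in Matrigel. The 7 groups of 2 libraries were PG, SLG and SMG organoids in a differentiation-accelerating medium (DAM), SMG organoids in the growth and expansion medium (GEM), and untreated PG, SLG and SMG tissue. All came from wild-type C57BL/6 mice, which the methods give as female and 6 to 8 weeks old. The tissue count columns carry 6w in their names, read here as 6 weeks, and the organoid columns carry no age. Donors of organoids and tissue may therefore differ in age. The study describes 9 days in GEM and then 3 days in DAM for organoids of all 3 glands, while the labels give 3 days in growth or differentiation medium, so organoids in GEM and DAM may also differ in total culture time. Among other components, both media held RSPO1 (1% conditioned medium or recombinant protein), Noggin, NRG1, FGF1, FGF7 and A83-01, and no Wnt protein was listed. GEM also held the ROCK inhibitor Y-27632 (10 µM), whereas DAM lacked it and held the Notch pathway inhibitor DAPT (5 µM), so the effects of these agents and of culture time cannot be told apart. Each group has 2 libraries. The design text calls them biological replicates, and the organoid libraries are described as independent samples. Whether the libraries of a group came from separate animals is not stated, so p-values measure only the spread between these libraries, which may be technical.

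Wnt ligands are secreted lipid-modified proteins that bind Frizzled receptors. With the co-receptors LRP5 and LRP6 they stabilise beta-catenin, which turns on genes through TCF/LEF factors, while other ligands act through beta-catenin-independent branches. R-spondins bind LGR4, LGR5 or LGR6 and remove the ligases RNF43 and ZNRF3, which otherwise clear Frizzled from the cell surface. Antagonists such as the SFRP proteins and WIF1 bind Wnt proteins outside the cell, while AXIN2, NKD1 and NOTUM are induced by the pathway and restrain it. In salivary glands the pathway is known for its part in duct development and in progenitor cells.

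Of the 34 genes of the list with a promoter window to search, Wnt5b and Wnt11 were those that held the TCF/LEF core motif CTTTGAT on either strand, and both separated the organoids of SMG from those of the other glands. Their windows, which run from 250 bases before to 50 bases after a RefSeq start site of GRCm38.p6, are shown for that reason, 5′ to 3′ on the strand of the gene, with the motif or its reverse complement ATCAAAG in capitals.
Wnt5b, chr6:119449337-119449636, minus strand: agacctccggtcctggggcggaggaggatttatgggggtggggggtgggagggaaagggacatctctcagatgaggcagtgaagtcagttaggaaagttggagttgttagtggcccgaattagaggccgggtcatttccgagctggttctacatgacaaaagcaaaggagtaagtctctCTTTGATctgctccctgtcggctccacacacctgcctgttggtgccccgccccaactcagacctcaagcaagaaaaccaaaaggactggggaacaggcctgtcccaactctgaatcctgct
Wnt11, chr7:98834862-98835161, plus strand: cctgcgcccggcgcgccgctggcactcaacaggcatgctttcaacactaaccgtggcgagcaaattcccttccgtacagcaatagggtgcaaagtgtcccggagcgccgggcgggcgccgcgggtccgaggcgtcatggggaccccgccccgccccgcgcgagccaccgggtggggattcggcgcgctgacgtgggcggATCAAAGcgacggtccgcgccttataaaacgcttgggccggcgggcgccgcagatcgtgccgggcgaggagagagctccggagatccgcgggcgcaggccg
The match begins 71 bases before the start site in Wnt5b and 51 bases before it in Wnt11. The 34 genes had 42 windows, of which 2 held the motif (4.76%), beside 3.73% of all 32851 windows. The other genes of the 50, among them Wnt5a, Wnt7b, Wnt10a, Dkk3 and Sfrp1, were not searched. The share is near that of all promoters. Axin2 and Fzd10 were searched and held no match, yet they too separated SMG organoids from those of the other glands. Wnt5b has other start sites in the table, as does Wnt11, and none of their windows held the motif.

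Organoid libraries held 56383651 to 69139767 counts, and tissue libraries 57397998 to 71367044. The 10 most abundant genes took 7.37% to 9.07% of counts in organoids and 47.0% to 80.2% in tissue, so levels are given as CPM, counts scaled to a common library size with TMM factors. 1 count was worth 0.00858 to 0.0105 CPM in organoids and 0.0166 to 0.0448 CPM in tissue. Some libraries stood apart from the other of their group. PG tissue 2 held 445 CPM of 3 skeletal muscle genes, against 4.24 CPM in PG tissue 1. SLG tissue 1 held 12063 CPM of the amylase gene Amy1, against 10.4 CPM in SLG tissue 2, while PG tissue held 211810 and 217530 CPM. Both SLG tissue libraries held Prol1, whose highest levels were in SMG tissue (221100 and 218030 CPM), at 20715 and 17211 CPM. Dcpp1, listed as a sublingual marker, had 33850 and 29182 CPM in PG, 33869 and 29060 CPM in SLG and 1.88 and 1.43 CPM in SMG tissue. The sublingual markers Dcpp2 and Dcpp3 had 6515 and 6077 CPM and 5717 and 5043 CPM in PG tissue, below SLG tissue. Whether tissue of 1 gland held cells of another was not tested. The tissue is labelled as epithelial cells, yet 8 fibroblast genes summed to 0.609 to 1.23 CPM in organoids, against 139 to 456 CPM in tissue. Col3a1, Lum and Dpt were at 0 in all 8 organoid libraries. 4 myoepithelial genes summed to 105 and 144 CPM in PG organoids, 44.9 and 41.0 CPM in SLG organoids and 1.18 to 1.59 CPM in the 4 SMG organoid libraries.

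A gene was called different when the quasi-likelihood test of edgeR gave a Benjamini-Hochberg adjusted p, over all genes tested, under 0.05 and a log2 fold change beyond 1. A filter on low counts was passed by 35 of the 50 genes in the organoid model, 37 in the tissue model and 39 in the model of all 14 libraries. The 11 that failed in each were Wnt1, Wnt2, Wnt2b, Wnt3, Wnt7a, Wnt8b, Wnt9b, Rspo2, Rspo4, Dkk1 and Dkk2. Their highest level was 0.224 CPM, for Rspo2 in SMG tissue 2, and Rspo4 and Dkk1 had no count in any library. Wnt2 had counts in SLG tissue alone (0.172 and 0.133 CPM) and Dkk2 in PG organoids alone (0.118 and 0.0629 CPM).

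The first question was how DAM changed SMG organoids. Of the 35 genes tested, 1 was called, Dkk3, a secreted glycoprotein of the DKK family, which was higher in DAM. Among all 17607 genes 2.81% were called, 1.59% higher and 1.22% lower. Dkk3 had 0.304 and 0.387 CPM in DAM, against 0.0416 and 0.0681 CPM in GEM (log2 fold change 2.63 ± 0.288 SE, edgeR adjusted p = 0.00042). The libraries did not overlap. None was called lower by edgeR or by DESeq2. At an unadjusted p under 0.05 edgeR gave 8 higher and 10 lower. No share of all genes at that unadjusted threshold is given, so these counts show nothing particular to the list.

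Several abundant genes differed between the media by less than the fold threshold. Wnt4, a ligand known from kidney and mammary epithelium, had 21.1 and 19.6 CPM in DAM, against 13.8 and 15.1 CPM in GEM (log2 fold change 0.51, edgeR adjusted p = 0.00283). Wnt10a, a ligand of skin appendages and teeth, had 14.4 and 12.8 CPM in DAM, against 9.77 and 9.18 CPM in GEM (0.53, edgeR adjusted p = 0.00968). Lgr6, an R-spondin receptor, had 17.3 and 19.8 CPM in DAM, against 12.3 and 12.1 CPM in GEM (0.62, edgeR adjusted p = 0.00209). For these 3 genes both DAM libraries lay above both GEM libraries. Sfrp1, a secreted antagonist, lay the same way at 0.44 (edgeR adjusted p = 0.00902). Fzd7 had 108 and 104 CPM in DAM, against 134 and 137 CPM in GEM (-0.34, edgeR adjusted p = 0.00799), with both DAM libraries below both GEM libraries. The co-receptors Lrp5 and Lrp6 lay the same way at -0.28 and -0.3 (edgeR adjusted p = 0.0444 and 0.0118). Axin2, a direct target of beta-catenin, had 0.704 and 1.17 CPM in DAM, against 0.873 and 0.953 CPM in GEM, and its libraries overlapped. Notum, a secreted enzyme that inactivates Wnt proteins, had 0.323 and 0.348 CPM in DAM, against 0.0831 and 0.117 CPM in GEM, and was not called. The cycling genes Mki67 and Top2a together had 153 and 169.9 CPM in DAM, against 251 and 270.3 CPM in GEM, and their part in these differences was not tested.

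Organoids of the 3 glands, all in DAM, were compared next. In PG 5 genes were called higher and 1 lower than in SLG (11.8% of all genes were called, 7.3% higher and 4.48% lower). Against SMG, 11 were higher and 2 lower in PG (18.6% of all genes, 12.6% higher and 6.08% lower), while SLG had 10 higher and 3 lower (18.4%, with 11.5% higher and 6.92% lower). The median log2 fold change of the 35 genes tested was 0.15, 0.52 and 0.28 for PG over SLG, PG over SMG and SLG over SMG, beside -0.01, 0.00 and 0.00 over all genes. The 3 comparisons share libraries. The myoepithelial genes given above moved with the SMG contrasts, as did Acta2, their most abundant gene, at 94.1 and 122 CPM in PG, 39.2 and 35.8 CPM in SLG and 0.124 and 0.0773 CPM in SMG organoids, and their part in what follows was not tested. In bulk RNA, fewer cells of a type and less RNA per cell cannot be told apart.

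Wnt5b, Wnt11 and Wnt5a, which are known for the beta-catenin-independent branch, were lower in SMG organoids than in those of the other glands. Wnt5b had 10.02 and 10.6 CPM in PG, 21.7 and 21.9 CPM in SLG and 1.5 and 2.09 CPM in SMG organoids. The glands did not overlap, and the log2 fold change was -1.1 ± 0.142 for PG over SLG, 2.51 ± 0.159 for PG over SMG and 3.61 ± 0.162 for SLG over SMG (edgeR adjusted p = 0.00022, 9.37e-07 and 1.01e-07). Wnt11 had 6.52 and 5.75 CPM in PG, 5.15 and 4.89 CPM in SLG and 1.24 and 0.957 CPM in SMG organoids, and was higher in PG and SLG than in SMG by 2.47 ± 0.206 and 2.2 ± 0.205 (edgeR adjusted p = 6.68e-06 and 1.31e-05). Wnt5a had 2.34 and 1.68 CPM in PG, 1.57 and 1.71 CPM in SLG and 0.571 and 0.454 CPM in SMG organoids, with PG and SLG higher than SMG by 1.96 and 1.68 (edgeR adjusted p = 0.00075 and 0.00178).

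Wnt10a and Wnt7b were highest in PG organoids. Wnt10a had 22.2 and 26.2 CPM in PG, 12.3 and 11.4 CPM in SLG and 14.4 and 12.8 CPM in SMG organoids. It passed the fold threshold for PG over SLG (1.02 ± 0.107, edgeR adjusted p = 5.17e-05) but not for PG over SMG (0.82), and without PG replicate 3 or SLG replicate 2 the value was 0.91 or 0.98. Wnt7b, a ligand of lung and kidney epithelium, had 24.2 and 22.6 CPM in PG, 12.4 and 11.6 CPM in SLG and 15.1 and 11.8 CPM in SMG organoids, differences within the fold threshold (0.95 and 0.79 for PG over SLG and SMG). Wnt4 had 28.0 and 27.4 CPM in PG, 32.8 and 34.5 CPM in SLG and 21.1 and 19.6 CPM in SMG organoids, also within it (at most 0.73, SLG over SMG).

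The low ligands Wnt3a and Wnt6 were lowest in SLG organoids. Wnt3a, the classical canonical ligand, had 0.728 and 0.671 CPM in PG, 0.0858 and 0 CPM in SLG and 0.504 and 0.532 CPM in SMG organoids, with log2 fold changes of 3.91 ± 0.754 for PG over SLG and -3.49 ± 0.758 for SLG over SMG (edgeR adjusted p = 0.00275 and 0.00362). Wnt6, another canonical ligand, had 0.718 and 0.535 CPM in PG, 0.18 and 0.0979 CPM in SLG and 0.39 and 0.396 CPM in SMG organoids (2.14 and -1.47 for the same contrasts, edgeR adjusted p = 0.00351 and 0.0179). For both genes SLG lay below the other glands without overlap. The second Wnt6 call was lost when SLG replicate 2, SMG replicate 1 or SMG replicate 2 was left out (edgeR adjusted p = 0.125, 0.0578 and 0.0589). Wnt16 had 31 counts in PG, 15 in SLG and 0 in SMG organoids, at least 10.9-fold and 4.77-fold higher than SMG against a floor of 3 counts over the 2 SMG libraries. The SLG call was lost when any 1 library of the 3 glands in DAM was left out (edgeR adjusted p between 0.0546 and 0.106).

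**Figure D1:**
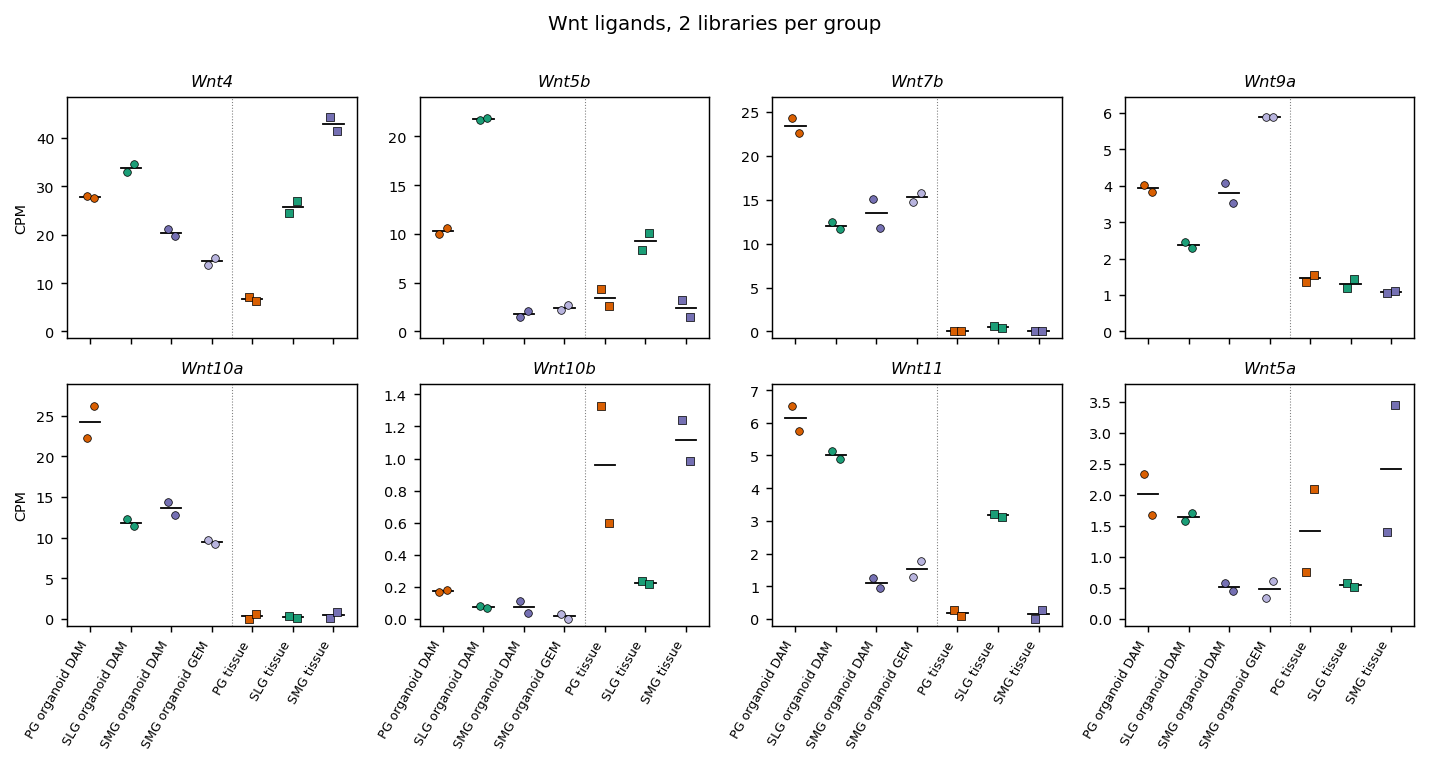
Level of 8 Wnt ligands in CPM (y axis, linear) in the 14 libraries by group (x axis), with circles for organoids, squares for tissue and a black line at the mean of the 2 libraries. Wnt5b, Wnt11 and Wnt5a are lower in SMG than in PG and SLG organoids, and Wnt7b and Wnt10a lie at 9.18 to 26.2 CPM in organoids and at 0 to 0.807 CPM in tissue.

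Per kilobase of GENCODE exon length, which allows genes to be compared, Wnt10a led the ligands in PG and SMG organoids (9.82 and 5.51 CPM per kb), followed by Wnt4 (6.61 and 4.85 CPM per kb). In SLG organoids Wnt5b (8.22 CPM per kb) and Wnt4 (8.03 CPM per kb) were close. All ligands together summed to 28.2 and 29.1 CPM per kb in PG, 25.9 and 25.7 in SLG and 16.5 and 14.8 in SMG organoids, the lowest of the 3 glands.

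The Frizzled genes called among organoids were Fzd3, Fzd9 and Fzd10. Fzd3 and Fzd10 separated SMG from both other glands, and Fzd9 separated SMG from PG only. Fzd3, known from planar polarity, had 10.1 and 10.2 CPM in PG, 10.7 and 12.5 CPM in SLG and 3.77 and 4.74 CPM in SMG organoids, with PG and SLG higher than SMG by 1.24 and 1.45 (edgeR adjusted p = 4.3e-05 and 1.27e-05). Fzd10 had 3.09 and 3.38 CPM in PG, 3.92 and 3.84 CPM in SLG and 0.837 and 0.899 CPM in SMG organoids (1.88 and 2.16 over SMG, edgeR adjusted p = 6.29e-05 and 2.15e-05). Neither gene had overlapping libraries between SMG and the other glands. Fzd9 lay the other way, at 0.531 and 1.06 CPM in PG, 1.6 and 1.32 CPM in SLG and 2.7 and 2.61 CPM in SMG organoids, lower in PG than in SMG (-1.75 ± 0.291, edgeR adjusted p = 0.000742). Fzd7 led the Frizzled genes per kilobase in each gland (19.8, 17.0 and 23.4 CPM per kb in PG, SLG and SMG organoids), followed by Fzd1 (11.6, 14.9 and 8.04 CPM per kb).

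On the R-spondin side, Lgr4, the broadly expressed receptor, had 84.0 and 76.4 CPM in PG, 40.9 and 44.0 CPM in SLG and 33.0 and 38.4 CPM in SMG organoids, higher in PG than in SMG (1.16 ± 0.0886, edgeR adjusted p = 3.76e-06) and 0.9 above SLG, within the fold threshold. Lgr5, a stem cell marker of the intestine, had 0.561 and 0.493 CPM in PG, 0.326 and 0.255 CPM in SLG and 0.019 and 0 CPM in SMG organoids. The ratio to the 2 counts in SMG was 55.0 for PG (95% exact counting interval 14.9 to 460.5) and 30.5 for SLG (8.11 to 258), intervals that cover counting error only, and both were called (edgeR adjusted p = 0.000725 and 0.00198). Lgr6 lay between 15.7 and 19.8 CPM in all 3 glands and was not called. Rnf43 had 9.03 and 8.56 CPM in PG, 15.4 and 13.7 CPM in SLG and 17.3 and 15.5 CPM in SMG organoids, with PG lowest but within the fold threshold (-0.91 over SMG, edgeR adjusted p = 3.17e-05), and Znrf3 was within it too. R-spondin genes had no counts in organoids except 3 counts of Rspo1 in SMG organoids in DAM, and the culture media supplied RSPO1.

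Axin2 and Dkk3 set SMG organoids apart, while Wif1 set PG organoids apart. Axin2 had 5.67 and 6.56 CPM in PG, 8.06 and 7.5 CPM in SLG and 0.704 and 1.17 CPM in SMG organoids. PG and SLG lay well above SMG, by 2.7 ± 0.218 and 3.06 ± 0.219 (edgeR adjusted p = 5.37e-06 and 2.01e-06). Dkk3 had 22.0 and 21.0 CPM in PG, 6.63 and 6.29 CPM in SLG and 0.304 and 0.387 CPM in SMG organoids. The glands were ordered PG, SLG, SMG without overlap, with log2 fold changes of 1.72 ± 0.121 for PG over SLG, 5.95 ± 0.161 for PG over SMG and 4.23 ± 0.157 for SLG over SMG (edgeR adjusted p = 3.26e-06, 4.91e-09 and 3.3e-08). Of the myoepithelial genes, Acta2, Myh11 and Mylk were in the same order without overlap. Cnn1 overlapped between PG (1.13 and 2.69 CPM) and SLG organoids (1.38 and 1.04 CPM), and the part of these genes was not tested. Wif1 had 7.09 and 5.92 CPM in PG, 2.43 and 1.998 CPM in SLG and 0.941 and 1.6 CPM in SMG organoids, higher in PG than in SLG and SMG by 1.54 and 2.35 (edgeR adjusted p = 0.00266 and 0.000166).

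Sfrp1 ran against that order. It had 106 and 110.2 CPM in PG, 114 and 107 CPM in SLG and 238 and 274 CPM in SMG organoids, where it was highest. PG and SLG were lower than SMG, with log2 fold changes of -1.25 ± 0.0888 and -1.21 ± 0.0887 (edgeR adjusted p = 2.17e-06 and 2.37e-06). Tcf7, a TCF/LEF factor, had 12.9 and 13.7 CPM in PG, 10.7 and 9.8 CPM in SLG and 17.6 and 16.7 CPM in SMG organoids, within the fold threshold, and Lef1, another such factor, had counts in only 1 organoid library (PG 1, 0.0295 CPM). Nkd1 reached at most 0.353 CPM in organoids. Its call for SLG over SMG (2.87 ± 1.02, edgeR adjusted p = 0.044) was lost in DESeq2 (adjusted p = 0.0879) and without SMG replicate 1 or any PG or SLG library (edgeR adjusted p between 0.0751 and 0.224).

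**Figure D2:**
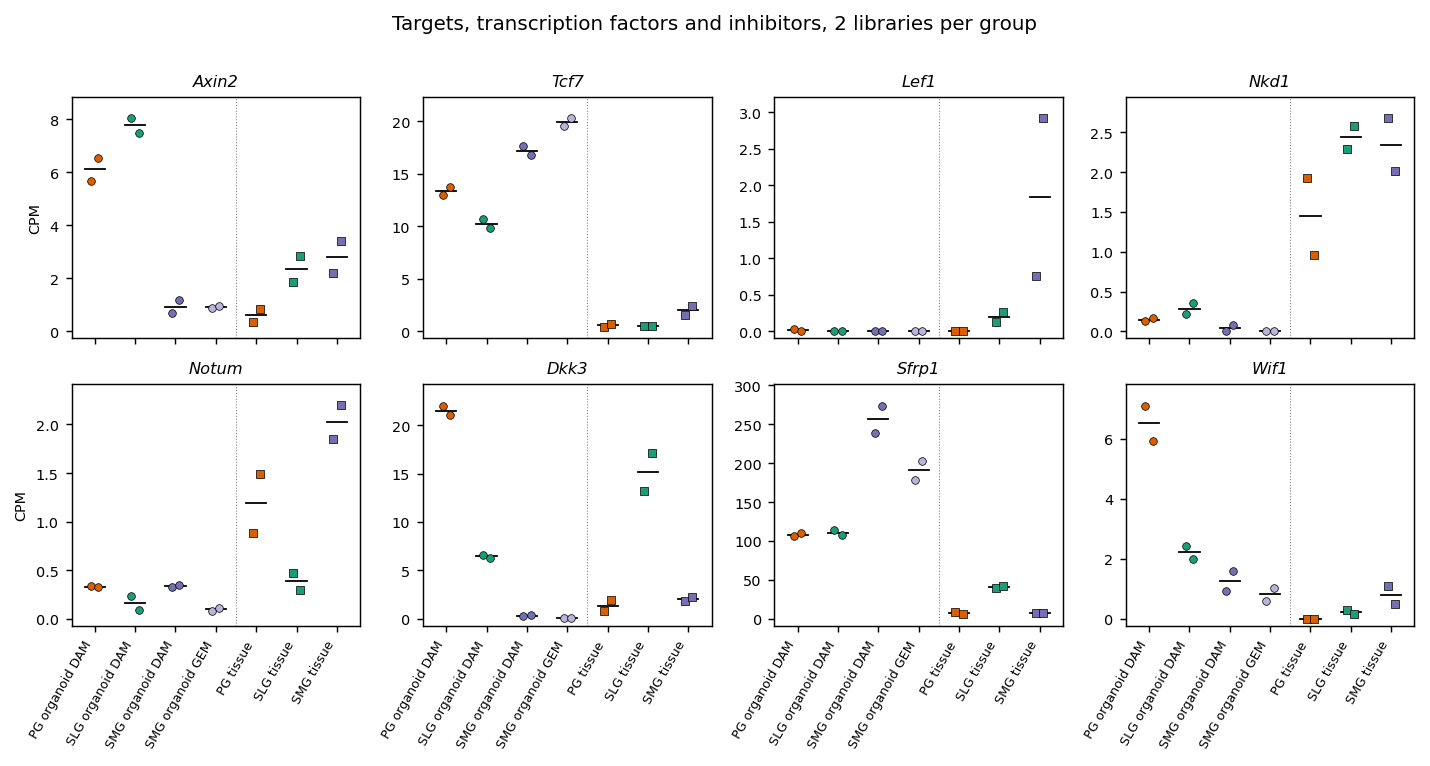
Level of 8 targets, transcription factors and inhibitors in CPM (y axis, linear) in the 14 libraries by group (x axis), with circles for organoids, squares for tissue and a black line at the mean of the 2 libraries. Among organoids, SMG is lowest for Axin2 and Dkk3 and highest for Sfrp1, and Tcf7 lies at 9.80 to 20.3 CPM in organoids and at 0.411 to 2.42 CPM in tissue.

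Of 63 other genes of the pathway, 55 were tested in organoids. DAM over GEM gave 1 call, the planar polarity gene Prickle1 (1.17 ± 0.131, edgeR adjusted p = 0.000478), which was higher in DAM. At an unadjusted p under 0.05 edgeR gave 6 higher and 19 lower, again without a share of all genes to set beside them. PG over SLG gave 4 higher and 4 lower, with the smallest adjusted p for the feedback inhibitor Nkd2 (-1.99), the secreted inhibitor Sostdc1 (-1.28) and the membrane inhibitor Apcdd1 (3.63, edgeR adjusted p = 3.84e-07, 2.15e-06 and 5.01e-06). PG over SMG gave 8 higher and 4 lower, and SLG over SMG 8 higher and 5 lower. Sostdc1 had 11.3 and 10.5 CPM in PG, 24.4 and 28.0 CPM in SLG and 180.1 and 169.6 CPM in SMG organoids, where it was highest (-4.01 and -2.73 over SMG, edgeR adjusted p = 2.02e-09 and 1.47e-08). Sp5, a direct target of beta-catenin, had 1978 counts in PG and 0 in SMG organoids, at least 698-fold higher in PG. Lrig1 was higher in PG and SLG than in SMG (1.38 and 1.51), and Prickle1 in SLG (2.15, edgeR adjusted p = 1.14e-06, 5.57e-07 and 4.27e-07).

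Tissue of the 3 glands differed in another way. In PG 3 of the 37 genes tested were called higher and 14 lower than in SLG (28% of all 16914 genes were called, 14% higher and 14.1% lower). Against SMG, 1 was higher and 9 lower in PG (14.6% of all genes, 6.87% higher and 7.7% lower), while SLG had 9 higher and 7 lower (19.6%, with 9.35% higher and 10.3% lower). The median log2 fold change of the genes tested was -0.75, -0.49 and -0.23 for PG over SLG, PG over SMG and SLG over SMG, beside -0.02, 0.00 and 0.01 over all genes. Without PG tissue 2, which held muscle transcripts, PG had 3 higher and 15 lower than SLG and 1 higher and 12 lower than SMG. Without SLG tissue 1, which held amylase transcripts, PG had 3 higher and 13 lower than SLG, and SLG had 9 higher and 5 lower than SMG. Scaling by library totals moved the median of all genes by -0.89 for PG over SLG, 0.12 for PG over SMG and 1.02 for SLG over SMG, and the values given are relative to TMM.

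Wnt4 was the leading ligand per kilobase in tissue (1.62, 6.11 and 10.2 CPM per kb in PG, SLG and SMG), with 81.8 and 81.1% of the summed ligand level in SMG tissue. It had 7.22 and 6.36 CPM in PG, 24.4 and 26.9 CPM in SLG and 44.3 and 41.3 CPM in SMG tissue, lower in PG than in SLG (-1.88 ± 0.113) and SMG (-2.65 ± 0.115, edgeR adjusted p = 4.28e-07 and 1.46e-07). Wnt5b had 4.3 and 2.58 CPM in PG, 8.39 and 10.1 CPM in SLG and 3.24 and 1.52 CPM in SMG tissue, with SLG highest (PG over SLG -1.39, SLG over SMG 1.91, edgeR adjusted p = 0.00498 and 0.00156). Wnt11 was likewise highest in SLG, with 0.285 and 0.0993 CPM in PG, 3.22 and 3.13 CPM in SLG and 0 and 0.269 CPM in SMG tissue (-3.98 and 4.6 for the same contrasts, edgeR adjusted p = 0.000584 and 0.000688). SLG was thus the gland with the most Wnt5b and Wnt11 in tissue.

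Other ligands were low. Wnt10b had 1.33 and 0.596 CPM in PG, 0.236 and 0.216 CPM in SLG and 1.24 and 0.986 CPM in SMG tissue, with SLG lowest (PG over SLG 2.11, SLG over SMG -2.32, edgeR adjusted p = 0.00867 and 0.00723). The call of PG over SLG was lost without PG tissue 1 or SLG tissue 2 (edgeR adjusted p = 0.0925 and 0.0522), and both calls were lost with library totals (1.23 and -1.32, edgeR adjusted p = 0.0762 and 0.0605). Wnt5a had 0.579 and 0.516 CPM in SLG and 1.39 and 3.45 CPM in SMG tissue (-2.16, edgeR adjusted p = 0.00996), a call that was lost without SMG tissue 2 or either SLG library (edgeR adjusted p = 0.137, 0.0545 and 0.0762) and with library totals (-1.13). Wnt7b had 3 counts in PG, 49 in SLG and 0 in SMG tissue, at least 7.48-fold higher in SLG than in SMG. That call was lost when any 1 SLG or SMG library was left out (edgeR adjusted p between 0.0768 and 0.113), and that of PG against SLG (edgeR adjusted p = 0.0418) in DESeq2 (adjusted p = 0.124) and when any 1 tissue library other than PG tissue 2 was left out (edgeR adjusted p between 0.0644 and 0.271).

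Lgr5 had 0 and 0.0662 CPM in PG, 8.99 and 9.89 CPM in SLG and 0 and 0 CPM in SMG tissue. It was at least 155-fold higher in SLG than in SMG, and the ratio of SLG to the 2 counts in PG was 293 (95% exact counting interval 81.0 to 2425). Both SLG libraries carried Lgr5, while Amy1 was at 12063 CPM in SLG tissue 1 and 10.4 CPM in SLG tissue 2. The part of transcripts from other glands was not tested. Lgr6 had 0.855 and 0.993 CPM in PG, 2.51 and 2.41 CPM in SLG and 4.03 and 4.44 CPM in SMG tissue, and was lower in PG than in both (-1.38 and -2.19, edgeR adjusted p = 0.00151 and 0.000148). Rspo3, an R-spondin, had 0.538 and 0.927 CPM in PG, 0.729 and 0.766 CPM in SLG and 2.3 and 2.42 CPM in SMG tissue, lower in PG and SLG than in SMG (-1.68 and -1.68, edgeR adjusted p = 0.00649 and 0.00474), the second of which was -0.66 with library totals and no longer called. Rspo1 had 0.530 CPM in PG tissue 2 and none in PG tissue 1, beside 0.3003 and 0.333 CPM in SLG and 0.942 and 0.762 CPM in SMG tissue. The fibroblast sum was 301 and 299.9 CPM in PG, 164 and 139 CPM in SLG and 412 and 456 CPM in SMG tissue. All 8 of its genes were lower in SLG than in SMG, whereas against PG only Dcn, Lum and Pdgfra were highest in SMG, Col1a1, Dpt and Pdgfrb were highest in PG, and Col1a2 and Col3a1 overlapped, and their part was not tested.

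The 2 ligases differed in their order. Rnf43 had 45.3 and 42.5 CPM in PG, 24.0 and 23.0 CPM in SLG and 25.3 and 26.2 CPM in SMG tissue, highest in PG but within the fold threshold (0.93 and 0.77 over SLG and SMG, edgeR adjusted p = 8.92e-06 and 7.95e-05). Znrf3 had 6.08 and 5.6 CPM in PG, 12.2 and 14.7 CPM in SLG and 15.9 and 15.0 CPM in SMG tissue, and was lower in PG than in both (-1.17 and -1.4, edgeR adjusted p = 5.63e-05 and 3.9e-05). Among Frizzled genes, Fzd9 was highest in PG, with 6.9 and 6.72 CPM in PG, 1.2 and 0.682 CPM in SLG and 2.3 and 2.06 CPM in SMG tissue (2.9, 1.64 and -1.26 for PG over SLG, PG over SMG and SLG over SMG, edgeR adjusted p = 1.66e-05, 0.00114 and 0.00696), and the last call was lost without SLG tissue 2 (-0.88) and with library totals (-0.26). Fzd4, known from blood vessels, had 4.37 and 4.54 CPM in PG, 19.99 and 28.5 CPM in SLG and 7.23 and 7.31 CPM in SMG tissue, highest in SLG (PG over SLG -2.41, SLG over SMG 1.71, edgeR adjusted p = 1.83e-06 and 2.81e-05). Among the endothelial markers, Vwf was also highest in SLG (5.16 and 4.37 CPM in PG, 204 and 204 CPM in SLG and 5.16 and 5.11 CPM in SMG tissue), but Pecam1 was lowest there (23.8 and 23.9 CPM in PG, 10.1 and 7.72 CPM in SLG and 14.5 and 13.3 CPM in SMG tissue), as was Kdr. Fzd1 and Fzd8 were higher in SLG than in SMG (1.54 and 1.42, edgeR adjusted p = 6.43e-06 and 6.91e-05), Fzd7 was lower in PG than in SMG (-1.07, edgeR adjusted p = 4.1e-05) and Lrp5 was lower in PG than in SLG (-1.08, edgeR adjusted p = 3.21e-05). The calls of Fzd7 and Lrp5 sat at the fold threshold and were lost without PG tissue 1 (-0.95) or with library totals (-0.94) and without SLG tissue 2 (-0.998).

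**Figure D3:**
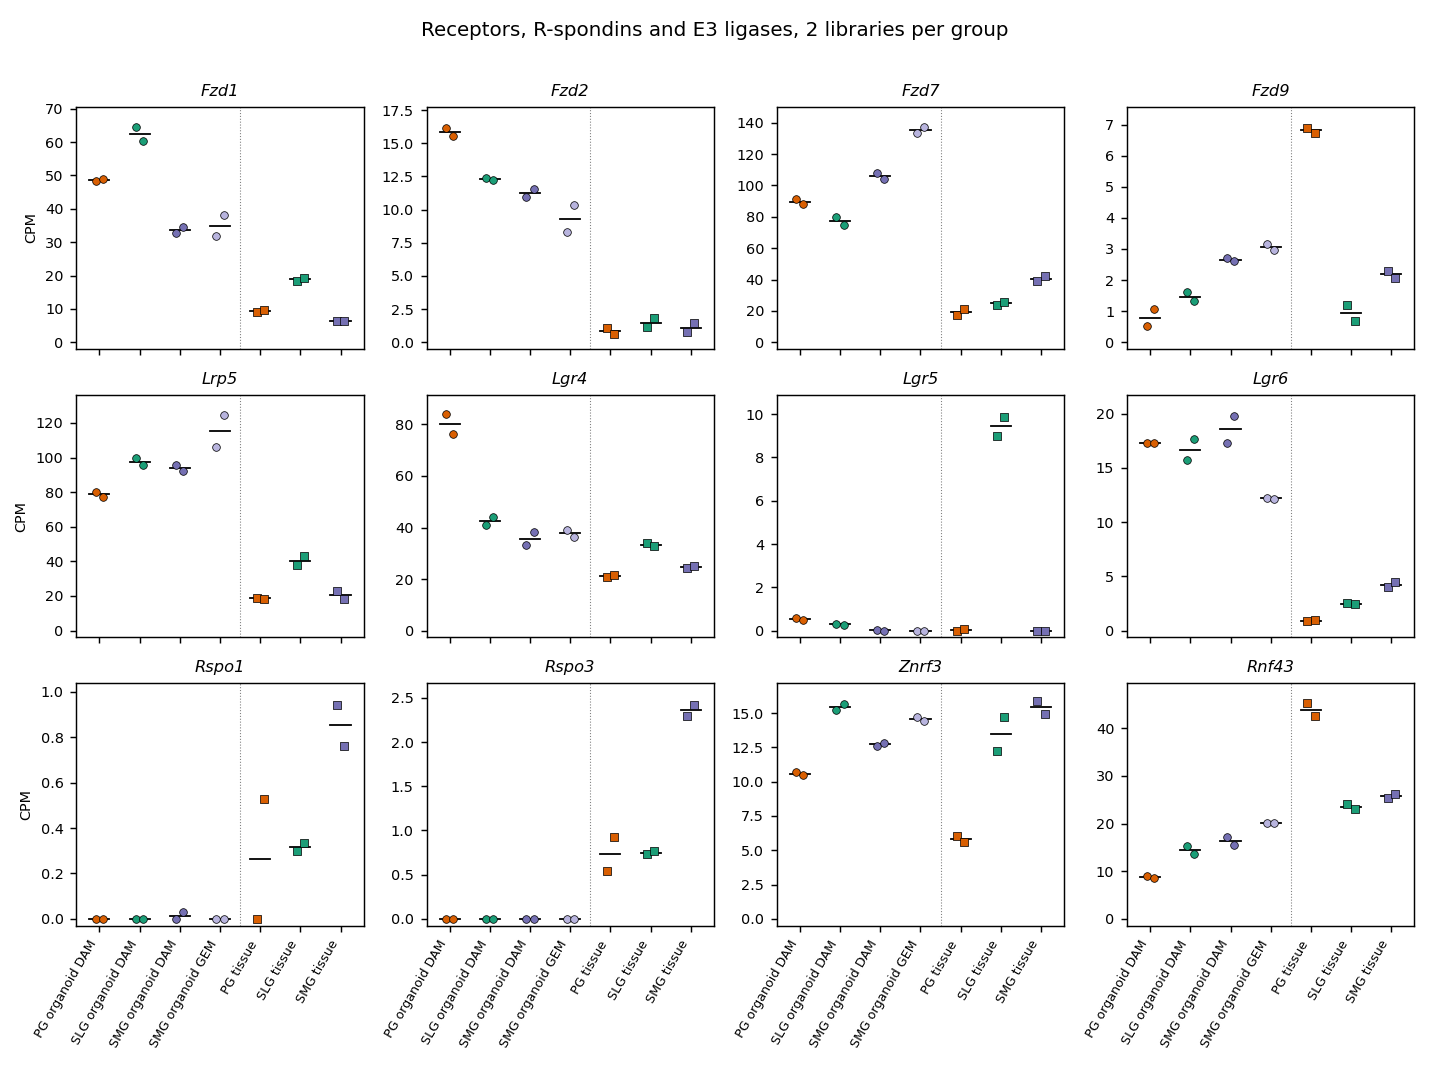
Level of 12 receptors, R-spondins and E3 ligases in CPM (y axis, linear) in the 14 libraries by group (x axis), with circles for organoids, squares for tissue and a black line at the mean of the 2 libraries. Lgr5 stands at 8.99 and 9.89 CPM in SLG tissue and at most at 0.561 CPM elsewhere, Rspo3 is at 0 in organoids, and Rnf43 and Fzd9 are highest in PG tissue.

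The pathway target Axin2 was lowest in PG tissue. It had 0.348 and 0.861 CPM in PG, 1.87 and 2.83 CPM in SLG and 2.22 and 3.41 CPM in SMG tissue, lower in PG than in both (-1.93 and -2.21, edgeR adjusted p = 0.00408 and 0.0033). Tcf7 had 0.411 and 0.729 CPM in PG, 0.558 and 0.499 CPM in SLG and 1.58 and 2.42 CPM in SMG tissue, lower in PG and SLG than in SMG (-1.8 and -1.94, edgeR adjusted p = 0.0109 and 0.00559), but both calls were lost without SMG tissue 2 (edgeR adjusted p = 0.0978 and 0.0667) and the first also without PG tissue 1 (edgeR adjusted p = 0.0572) and the second with library totals (-0.92). Lef1 had no count in PG, 0.129 and 0.266 CPM in SLG and 0.754 and 2.91 CPM in SMG tissue, at least 4.25-fold and 35.8-fold lower in PG. The call against SLG was lost without SLG tissue 2 or either PG library (edgeR adjusted p = 0.0761, 0.0906 and 0.082). It was also lower in SLG than in SMG (-3.19, edgeR adjusted p = 0.00961), a call lost without SMG tissue 2 or SLG tissue 1. The immune marker sum was 33.5 and 30.2 CPM in PG, 29.2 and 25.3 CPM in SLG and 60.2 and 68.5 CPM in SMG tissue. Each immune marker was highest in SMG tissue 2. Cd3e and Cd79a, at 0.493 and 0.672 CPM there, had no count in PG tissue, whereas Ptprc, Cd68 and Lyz2 had counts in all 3 glands. The part of immune cells in the Tcf7 and Lef1 differences was not tested.

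Dkk3 and the antagonist Sfrp1 were highest in SLG tissue. Dkk3 had 0.823 and 1.92 CPM in PG, 13.2 and 17.1 CPM in SLG and 1.85 and 2.24 CPM in SMG tissue (PG over SLG -3.44, SLG over SMG 2.86, edgeR adjusted p = 1.09e-05 and 5.32e-05). Sfrp1 had 8.61 and 6.59 CPM in PG, 39.8 and 42.1 CPM in SLG and 7.05 and 7.31 CPM in SMG tissue (-2.4 and 2.48 for the same contrasts, edgeR adjusted p = 2.36e-07 and 4.21e-07). The myoepithelial sum, 144 and 138 CPM in PG, 602 and 667 CPM in SLG and 329 and 315 CPM in SMG tissue, was also highest in SLG, as was each of its 4 genes, and its part was not tested. Wif1 had no count in PG tissue and 0.3003 and 0.15 CPM in SLG and 1.09 and 0.493 CPM in SMG tissue, at least 4.44-fold and 16.9-fold lower in PG, although the call against SLG was lost without SLG tissue 1 or either PG library (edgeR adjusted p = 0.0667, 0.0564 and 0.0524). Notum had 0.886 and 1.49 CPM in PG, 0.472 and 0.2996 CPM in SLG and 1.85 and 2.2 CPM in SMG tissue, lowest in SLG (PG over SLG 1.66, SLG over SMG -2.42, edgeR adjusted p = 0.00914 and 0.00143), the first of which was lost without PG tissue 2 or SLG tissue 2 (edgeR adjusted p = 0.0675 and 0.0729) and with library totals (0.78).

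Of the other pathway genes, 55 were tested in tissue. PG had 7 higher and 7 lower than SLG, with the smallest adjusted p for Nkd2 (-1.69), the co-receptor Gpc4 (-1.27) and the transcription factor Sox9 (-1.35, edgeR adjusted p = 1.27e-06, 1.53e-06 and 1.62e-06). PG had 5 higher and 4 lower than SMG, with Ccnd1 (-1.15), Cd44 (-1.01) and the corepressor Tle4 (2.51, edgeR adjusted p = 1.17e-06, 2.62e-06 and 1e-05). SLG had 7 higher and 5 lower than SMG, with Cd44 (-1.23), Gpc4 (1.35) and the coactivator Bcl9 (1.16, edgeR adjusted p = 5.04e-07, 2.01e-06 and 9.42e-05).

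Organoids in DAM were then compared with tissue of the same gland. In PG 23 of the 39 genes tested were called higher and 8 lower in organoids (50.3% of all 19385 genes were called, 25.6% higher and 24.7% lower). In SLG 15 were higher and 8 lower (43.2% of all genes, 20.2% higher and 23% lower), and in SMG 13 were higher and 13 lower (49.4% of all genes, 23% higher and 26.4% lower). The median log2 fold change of the genes tested was 1.92 in PG, 0.66 in SLG and 0.19 in SMG, beside 0.09, -0.03 and 0.00 over all genes. Besides the fibroblast genes, 5 endothelial genes summed to 0.946 to 2.90 CPM in organoids, against 39.1 to 233 CPM in tissue (mostly Vwf in SLG), and 3 basal duct genes to 2258 to 4986 CPM in organoids, against 45.1 to 83.4 CPM in tissue. The sum of 5 immune genes was 3.62 to 29.4 CPM in organoids and 25.3 to 68.5 CPM in tissue, and 1 of them, Ptprc, had no count in organoids. The part of these genes was not tested. Scaling by library totals moved the median of all genes by 1.94 in PG, 1.08 in SLG and 1.97 in SMG, so the values are relative to TMM. The authors made the count tables of organoids and tissue as separate tables.

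The ligands Wnt7b and Wnt10a were higher in organoids than in tissue of all 3 glands. Wnt7b, with the organoid levels given above, had 0 and 0.0993 CPM in PG tissue, 0.579 and 0.366 CPM in SLG tissue and 0 and 0 CPM in SMG tissue. It was higher in SLG organoids by 4.69 ± 0.243 (edgeR adjusted p = 1.72e-09) and at least 219-fold higher in SMG organoids, and the ratio to the 3 counts in PG tissue was 483 (95% exact counting interval 165 to 2343). Wnt10a had 0 and 0.629 CPM in PG tissue, 0.343 and 0.166 CPM in SLG tissue and 0.113 and 0.807 CPM in SMG tissue, and was higher in organoids by 6.29 ± 0.584, 5.59 ± 0.559 and 4.96 ± 0.587 (edgeR adjusted p = 2.7e-06, 6.57e-06 and 2e-05). No library of organoids overlapped with tissue for either gene. Wnt3a had no count in tissue and was at least 14.4-fold higher in PG and at least 8.43-fold higher in SMG organoids.

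Other ligands depended on the gland. Wnt4 was higher in PG organoids (2.03 ± 0.098, edgeR adjusted p = 2.2e-10), within the fold threshold in SLG (0.39) and lower in SMG organoids (-1.07 ± 0.0875, edgeR adjusted p = 6.35e-08), the last of which turned to 0.91 with library totals. Wnt5b was higher in PG and SLG organoids (1.58 and 1.23, edgeR adjusted p = 0.000134 and 0.000547), and Wnt11 and Wnt9a in PG and SMG organoids (Wnt11 4.97 and 3.13, Wnt9a 1.43 and 1.8, edgeR adjusted p = 5.26e-07, 0.000448, 2.16e-05 and 4.05e-06). Wnt5a was higher in SLG organoids (1.58, edgeR adjusted p = 0.0123, or 0.0661 without SLG tissue 2) and lower in SMG organoids (-2.23, edgeR adjusted p = 0.00125), a call lost with library totals (-0.23). Wnt10b was lower in PG and SMG organoids (-2.47 and -3.84, edgeR adjusted p = 0.00707 and 0.000528), the first of which was lost without PG tissue 1 (edgeR adjusted p = 0.091) and with library totals (-0.54). Wnt16 was at least 3.24-fold higher in PG and 2.44-fold higher in SLG organoids, and in SMG it had 0 counts in organoids and 4 in tissue, at least 5.69-fold lower in organoids. These Wnt16 calls (edgeR adjusted p = 0.0245, 0.0405 and 0.0213) were lost in DESeq2 (adjusted p = 0.152, 0.192 and 0.079) and when any 1 library of the groups compared was left out. The summed ligand level per kilobase was 28.2 and 29.1 in PG organoids, against 4.77 and 3.89 in PG tissue, 25.9 and 25.7 in SLG organoids, against 10.7 and 11.9 in SLG tissue, and 16.5 and 14.8 in SMG organoids, against 12.9 and 12.1 in SMG tissue.

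Most Frizzled genes that were called were higher in organoids. Fzd1 was higher by 2.4, 1.72 and 2.41 in PG, SLG and SMG, Fzd2 by 4.18, 3.04 and 3.36, and Fzd7 by 2.21, 1.63 and 1.39. The co-receptor Lrp5 was higher by 2.07, 1.27 and 2.19 (the edgeR adjusted p of these 4 genes were at most 5.35e-08). Fzd2 had 16.1 and 15.5 CPM in PG organoids, against 1.08 and 0.662 CPM in PG tissue, and no library overlapped in any gland. Fzd4 was higher in PG and SMG organoids (1.72 and 1.14, edgeR adjusted p = 3.87e-07 and 1.9e-05), and the SMG value was 0.996 with RLE size factors, just inside the threshold. Fzd6 was higher in PG organoids (1.34, edgeR adjusted p = 4.01e-09), and Fzd10 in PG and SLG organoids (2.21 and 1.96, edgeR adjusted p = 0.000147 and 0.000236). Fzd9 was lower in PG organoids (-3.1 ± 0.325, edgeR adjusted p = 9.08e-07). Fzd5 was lower in SLG and SMG organoids (-1.27 and -1.27, edgeR adjusted p = 3.5e-08 and 3.78e-08), although with library totals the SLG call was lost (-0.15) and the SMG value turned to 0.71.

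**Figure D4:**
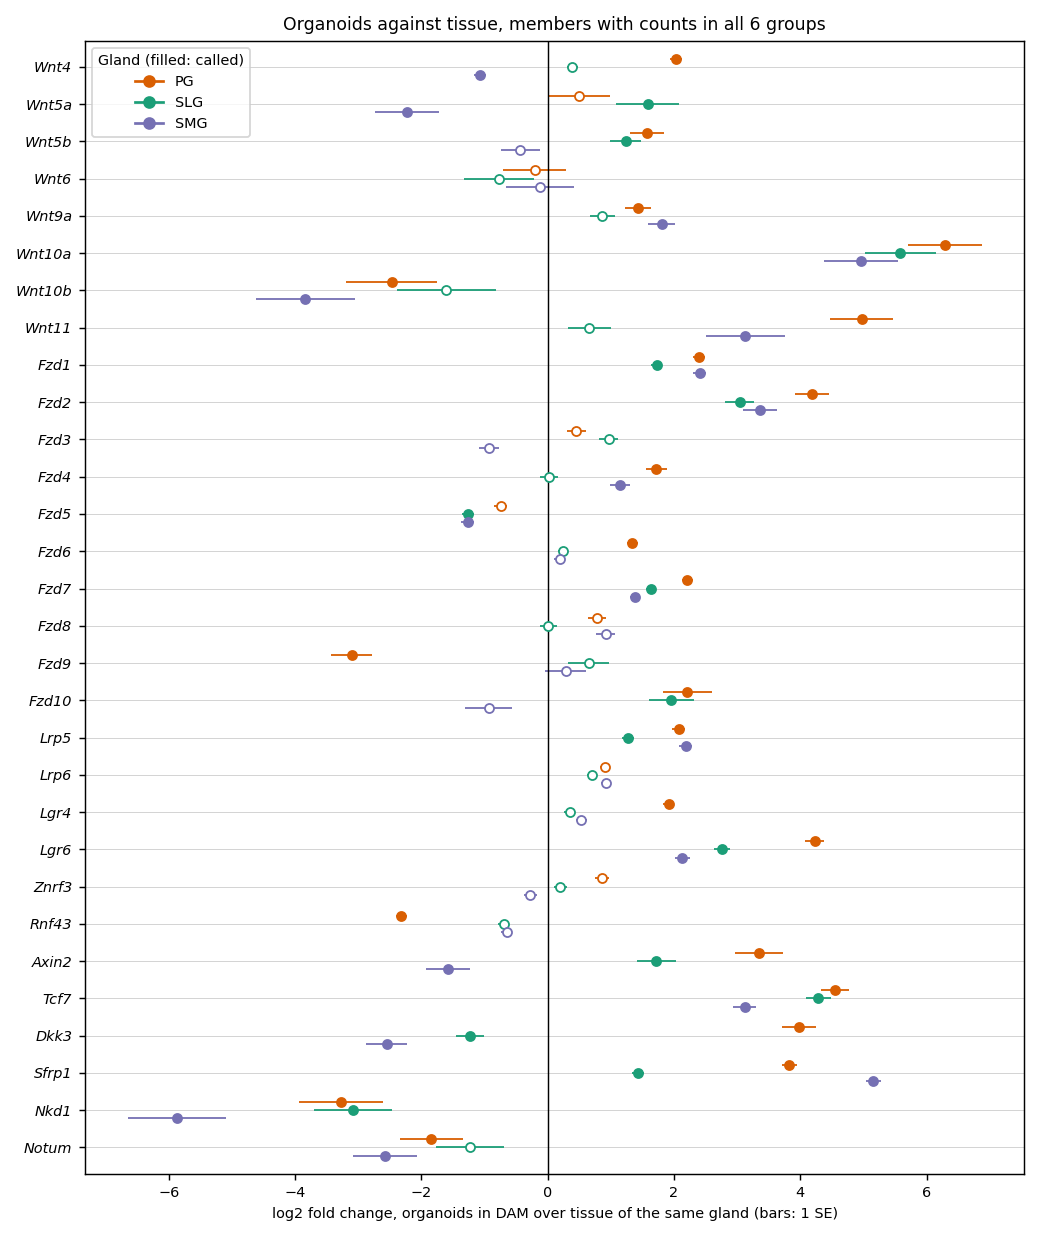
Log2 fold change of organoids in DAM over tissue of the same gland (x axis, bars of 1 SE) for the 30 tested genes with counts in all 6 groups (y axis), in PG (orange), SLG (green) and SMG (purple), filled where called by edgeR. Tcf7, Wnt10a, Fzd2 and Sfrp1 lie right of 0 in all 3 glands, Nkd1 lies left of 0 in all 3, and Axin2 and Wnt4 lie right of 0 in PG and left of 0 in SMG, where library totals turn both.

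In the R-spondin group, Lgr6 was higher in organoids by 4.23 ± 0.15 in PG, 2.76 ± 0.122 in SLG and 2.13 ± 0.124 in SMG (edgeR adjusted p = 9.7e-12, 1.15e-10 and 1.59e-09). Lgr4 was called in PG only, where it was higher in organoids (1.92, edgeR adjusted p = 1.55e-10). Lgr5 was lower in SLG organoids, with 0.326 and 0.255 CPM in organoids, against 8.99 and 9.89 CPM in tissue (-5.01 ± 0.433, edgeR adjusted p = 6.58e-07). In PG Lgr5 was higher in organoids, with a ratio of 16.3 to the 2 counts in tissue (95% exact counting interval 4.4 to 136). Rnf43 had 9.03 and 8.56 CPM in PG organoids, against 45.3 and 42.5 CPM in PG tissue (-2.32 ± 0.0905, edgeR adjusted p = 2.46e-11), and was lower in organoids, but with library totals the value was -0.37, within the fold threshold. Rspo3 had no count in organoids and 45, 80 and 115 counts in PG, SLG and SMG tissue, at least 47.8-fold, 54.6-fold and 164-fold lower in organoids. Rspo1 was at least 23.2-fold lower in SLG organoids, and in SMG the ratio of tissue to the 3 counts in organoids was 59.8 (95% exact counting interval 19.1 to 301), with an edgeR adjusted p of 0.0637 without SMG organoid replicate 1. The antagonist Sfrp2 had no count in organoids and was at least 41.0-fold lower in SLG and 55.5-fold lower in SMG organoids, calls that DESeq2 did not make (adjusted p = 0.172 and 0.146). In PG, Rspo1 and Sfrp2 were called lower (edgeR adjusted p = 0.0114 and 0.0395, the second 0.12 with library totals), but their tissue counts came from PG tissue 2 alone, and without it both were at 0 in organoids and tissue and 5 genes, not 8, were called lower.

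Targets and inhibitors split. Tcf7 was higher in organoids by 4.55 ± 0.216 in PG, 4.28 ± 0.2001 in SLG and 3.12 ± 0.183 in SMG (edgeR adjusted p = 1.8e-10, 2.03e-10 and 1.81e-09). Lef1 was at least 15.0-fold lower in SLG and 121-fold lower in SMG organoids, so these TCF/LEF genes lay in opposite directions there, although DESeq2 did not call Lef1 (adjusted p = 0.238 and 0.0732). Axin2 was higher in PG and SLG organoids (3.34 ± 0.381 and 1.72 ± 0.312, edgeR adjusted p = 2.2e-06 and 0.000239) and lower in SMG organoids (-1.58 ± 0.344, edgeR adjusted p = 0.000923), the last of which turned to 0.41 with library totals. Nkd1 was lower in organoids of all 3 glands (-3.28, -3.08 and -5.87, edgeR adjusted p = 0.000634, 0.000666 and 1.59e-05), the PG call being lost with library totals (-1.34, edgeR adjusted p = 0.0727), and Notum in PG and SMG (-1.84 and -2.58, edgeR adjusted p = 0.00466 and 0.000384), although with library totals the PG value turned to 0.1 and the SMG call was lost (-0.6), and the PG edgeR adjusted p was 0.0504 without PG tissue 2. Sfrp1 was higher in organoids by 3.83 ± 0.119 in PG, 1.43 ± 0.101 in SLG and 5.16 ± 0.126 in SMG (edgeR adjusted p = 2.62e-12, 1.8e-08 and 2.72e-13). Dkk3 was higher in PG organoids (3.98 ± 0.269) and lower in SLG (-1.23 ± 0.217) and SMG organoids (-2.55 ± 0.323, edgeR adjusted p = 8.1e-09, 0.000183 and 6.56e-06), but the SLG value was -0.99 without SLG tissue 2, and with library totals both lower calls were lost (-0.13 in SLG and -0.57 in SMG). Wif1 had 1286 counts in PG organoids and 0 in PG tissue, at least 134-fold higher, and was higher in SLG organoids by 3.33 ± 0.48 (edgeR adjusted p = 4.24e-05).

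Of the other pathway genes, 58 were tested here. PG organoids had 25 higher and 8 lower than tissue, SLG organoids 21 higher and 5 lower, and SMG organoids 24 higher and 9 lower. The receptor Ptk7 (2.73, 2.98 and 4.08) and the cell cycle gene Ccnd1 (2.39, 1.48 and 1.71) were among the 3 smallest adjusted p in PG, SLG and SMG (edgeR adjusted p at most 1.88e-10). The others were Wls (1.74), which carries Wnt proteins to the cell surface, in PG, Ctnnb1 (1.5), which encodes beta-catenin, in SLG, and Sostdc1 (5.37) in SMG (edgeR adjusted p = 3.35e-11, 1.15e-10 and 1.07e-11).

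Whether glands differed in the same way in organoids and tissue was tested as an interaction. The log2 fold change between glands was greater in organoids than in tissue (more positive) for 14 genes and smaller (more negative) for 2 in PG over SLG (23.3% of all genes were called, 13.6% greater and 9.73% smaller), for 15 and 3 in PG over SMG (23.2%, with 14.4% greater and 8.82% smaller) and for 11 and 5 in SLG over SMG (20.7%, with 11.2% greater and 9.44% smaller). Dkk3 was 5.95 for PG over SMG in organoids and -0.57 in tissue (interaction 6.53 ± 0.422, edgeR adjusted p = 3.88e-08). Axin2 was 2.7 for PG over SMG in organoids and -2.21 in tissue (interaction 4.92 ± 0.516, edgeR adjusted p = 3.91e-06). Sfrp1 was -1.21 for SLG over SMG in organoids and 2.48 in tissue (interaction -3.73 ± 0.156, edgeR adjusted p = 6.33e-10). Axin2 and Sfrp1 thus changed sides between organoids and tissue in these contrasts. Wnt5b kept its side for SLG over SMG, at 3.61 in organoids and 1.91 in tissue, with a difference in size (interaction 1.67 ± 0.395, edgeR adjusted p = 0.00412) that was no longer called with library totals (0.8) or without SMG tissue 1 (1.01, edgeR adjusted p = 0.0951).

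**Figure D5:**
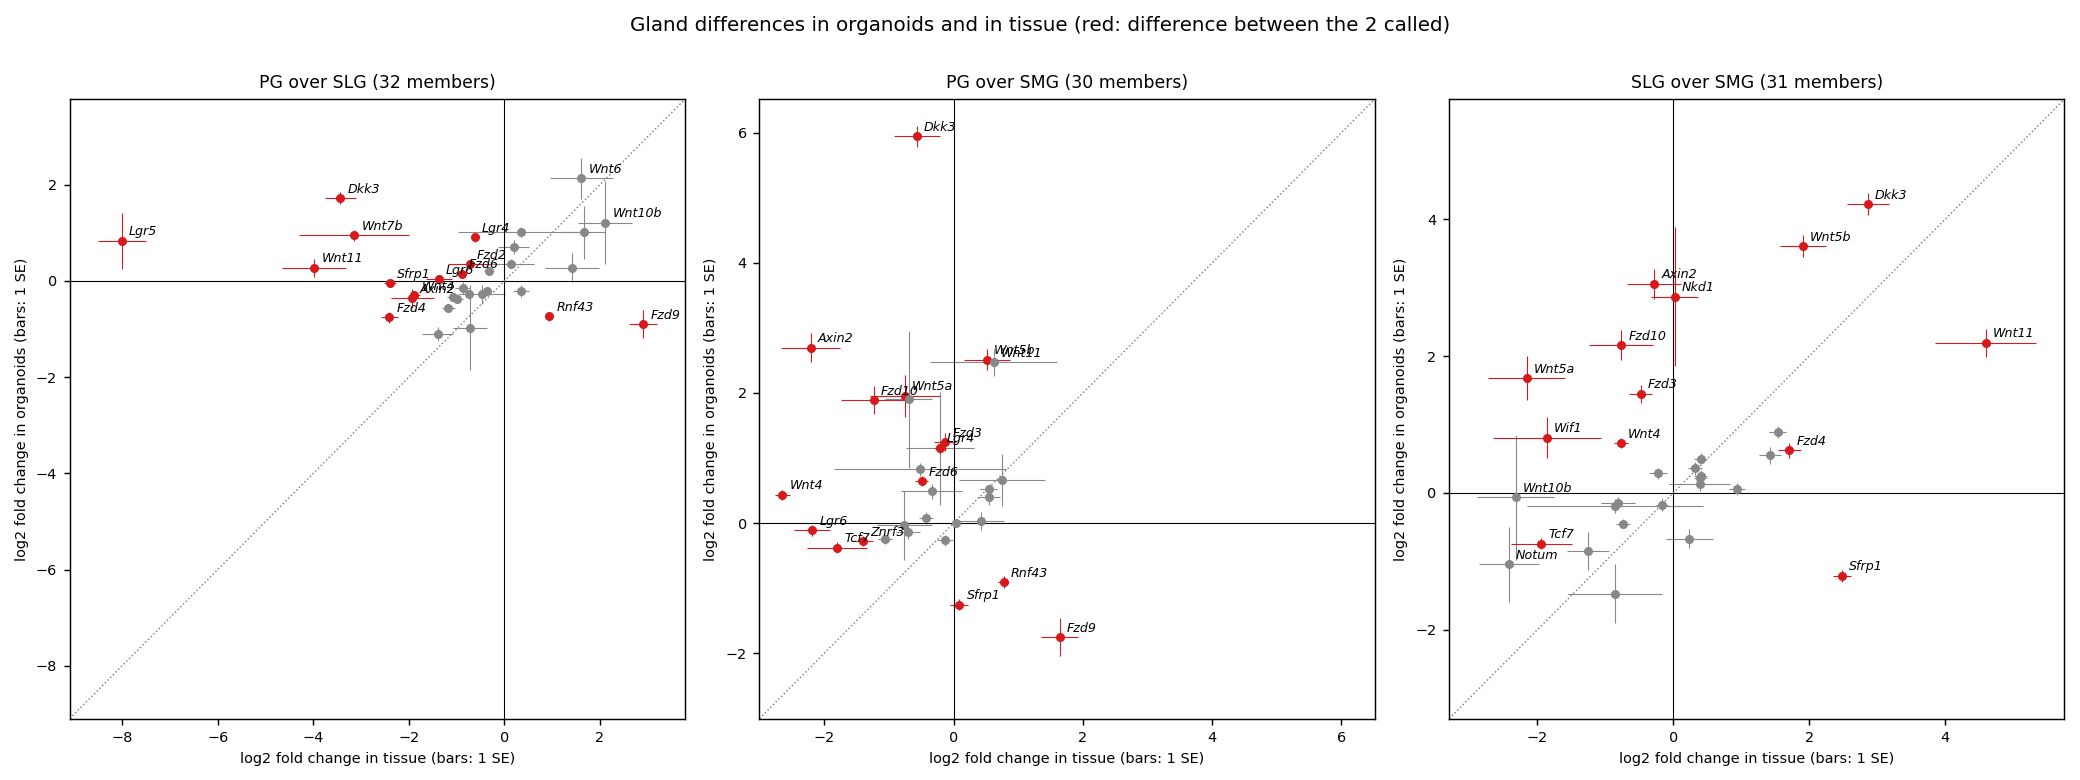
Log2 fold change between glands in organoids (y axis) against the same in tissue (x axis), with bars of 1 SE, for tested genes with counts in all 4 groups (32, 30 and 31 in the panels), red where the interaction was called by edgeR. Points on the dotted line have equal differences, and Dkk3 and Axin2 lie far above it for PG over SMG.

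Of the 50 genes, 10 share exon bases with a gene on the opposite strand in GENCODE (Wnt5a, Wnt7b, Wnt11, Fzd5, Fzd6, Rspo3, Axin2, Lef1, Sfrp2 and Notum). No source used here says whether reads were counted by strand, so reads of a gene and of its partner cannot be told apart.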

How the data were processed

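The count per gene was deposited by the authors as whole numbers, in 1 table for organoids and 1 for tissue, with per-sample FPKM and TPM values in 28 further columns that were not used. The submitters' processing notes name HISAT2, StringTie, DESeq2 and GRCm38, without versions. The labels name a stranded total RNA kit and the methods a stranded mRNA kit, so which RNA was captured is not settled. The authors' own fold changes and p-values were not used. Some count columns (PG organoids in DAM and SMG organoids in GEM) are numbered 1 and 3 and were taken by group only.

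Counts were scaled by TMM and fitted with the quasi-likelihood test of edgeR 4.0.16 (limma 3.58.1, R 4.3.3) after filterByExpr, in 3 models with 1 mean per group: 8 organoid libraries (17607 genes), 6 tissue libraries (16914 genes) and all 14 (19385 genes). P-values were adjusted over all genes of a model by the Benjamini-Hochberg method. Fold changes are given for genes called in a comparison, and for some, chosen after their values were seen, of those that were not called but had at least 10 CPM, with the rest given by levels or counts. Of other pathway genes, up to 3 with the smallest adjusted p are named per comparison. Where a group had no counts, folds are lower bounds against 3 counts over its 2 libraries, and intervals and floors cover counting error only. Marker sums and the gene lists, like the 50 genes, were chosen with earlier results of these data known. Muc19, 1 of the sublingual markers, was not analysed here. Exon lengths and overlaps came from GENCODE M21 and promoters from RefSeq (GRCm38.p6).

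The models were tested on simulated counts with 50 genes changed at each fold. For DAM over GEM in SMG organoids (17032 genes), 44% of 2-fold and 92% of 3-fold changes were recovered, for PG over SMG organoids (17043 genes) 54% and 92%, for SLG over SMG tissue (16303 genes) 42% and 90%, and for SMG organoids over tissue (18955 genes) 44% and 96%. The 2-fold shares are bounded by the call rule, since a 2-fold change lies at the fold threshold. Changed genes were drawn above a floor on mean level, so the shares do not cover the lowest genes. False calls among unchanged genes numbered 7, 5, 17 and 7 in the same order. Unchanged genes had the same mean in every group, and the changes ran equally up and down. The simulation therefore cannot show how TMM scaling fares where many genes differ, as between organoids and tissue. Alternatives were another tool (DESeq2 1.42.0), scaling by RLE or by library totals, other filters on low counts, fits of the compared groups alone, the replicate number as a block, and each library left out in turn. Libraries of a group differed beyond counting noise (chi-square per degree of freedom 6.98 to 283), so no library was taken for a repeat deposit of another. Python 3.11.15, scipy 1.17.1 and matplotlib 3.10.9 were used for intervals and figures.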

Additional observations from a re-analysis of the deposited data

Results flagged for a closer look

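Genes are given here where the difference between 2 glands was itself tested as different in organoids and in tissue, by the interaction term of edgeR (adjusted p under 0.05, log2 difference beyond 1). Each value is the log2 fold change in organoids minus that in tissue. For PG over SLG the 14 genes were Wnt4 (1.64), Wnt7b (4.17), Wnt11 (4.31), Fzd2 (1.14), Fzd4 (1.70), Fzd6 (1.09), Fzd9 (-3.75), Lgr4 (1.57), Lgr5 (8.97), Lgr6 (1.46), Rnf43 (-1.62), Axin2 (1.62), Dkk3 (5.21) and Sfrp1 (2.40). For PG over SMG the 15 genes were Wnt4 (3.10), Wnt5a (2.73), Wnt5b (2.01), Fzd3 (1.38), Fzd6 (1.15), Fzd9 (-3.38), Fzd10 (3.14), Lgr4 (1.39), Lgr6 (2.09), Znrf3 (1.14), Rnf43 (-1.67), Axin2 (4.92), Tcf7 (1.43), Dkk3 (6.53) and Sfrp1 (-1.33). For SLG over SMG the 13 genes were Wnt4 (1.46), Wnt5a (3.81), Wnt5b (1.67), Wnt11 (-2.47), Fzd3 (1.89), Fzd4 (-1.12), Fzd10 (2.89), Axin2 (3.30), Tcf7 (1.16), Dkk3 (1.32), Sfrp1 (-3.73), Wif1 (2.68) and Nkd1 (2.79). For PG over SLG, the values of Lgr5 and Wnt7b rest on 2 and 3 counts in PG tissue. Under the alternatives they ran from 7.96 to 13.4 and from 3.15 to 9.12. Some calls in these lists were lost under an alternative. With library totals the lost values were Rnf43 -0.79 for PG over SLG, and for SLG over SMG Wnt4 0.59, Wnt5b 0.8, Tcf7 0.29, Dkk3 0.45 and Nkd1 1.94. For PG over SLG, Fzd2 was also lost without PG organoid 1, either SLG organoid library, PG tissue 2 (0.84) or SLG tissue 2 (0.69), and Axin2 without PG organoid 3, SLG organoid 2, PG tissue 1 (1.1) or SLG tissue 2 (1.26). For SLG over SMG, Nkd1 was lost without SMG organoid 1 (1.81), any PG or SLG organoid library or any SLG or SMG tissue library, Wnt11 without SMG organoid 1 or SMG tissue 1 (-1.35), Wnt5b and Wif1 without SMG tissue 1 (1.01 and 1.98), Dkk3 without SMG organoid 1 or SMG tissue 2 (1.15 and 1.2), Tcf7 without SMG tissue 2 (0.86) and Fzd4 without SLG tissue 2 (-0.81). A further 8 interaction calls had a group with no count in either library and are not given as values. The 3 contrasts share libraries, and the share of all genes called stands beside the counts in the report. In organoids over tissue, fibroblast, endothelial and basal duct genes moved with these groups, and their part was not tested. Of the other pathway genes, 5 were greater and 7 smaller in organoids for PG over SLG, 7 and 10 for PG over SMG, and 5 and 9 for SLG over SMG. The smallest adjusted p went to Tnfrsf19 (5.97), Tle4 (-2.49) and Csnk1e (-1.16) in the first, Sostdc1 (-3.14), Apcdd1 (5.19) and Ptk7 (-1.35) in the second, and Ptk7 (-1.1) and Gpc4 (-1.18) in the third.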

How the results depend on the processing

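Of 3615 values recomputed under the alternatives, 3447 kept their direction and their side of the threshold, 162 kept their direction but missed the threshold and 6 reversed. Of 206 calls of a gene in a comparison, 147 were kept in every alternative. The reversals were Notum in PG (0.10), Wnt4 (0.91), Fzd5 (0.71) and Axin2 (0.41) in SMG for organoids over tissue with library totals, and Rspo1 and Sfrp2 in PG, whose values without 1 library ran between -8.36 and 0 and between -7.17 and 0, with 0 where PG tissue replicate 2 was left out.

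The choice that moved most counts was scaling by library totals. With it, tissue gave 1 gene higher and 25 lower for PG over SLG and 17 higher and 2 lower for SLG over SMG. Organoids over tissue gave 3 lower in PG, 27 higher in SLG, and 25 higher and 6 lower in SMG, and the interaction gave 24 greater and 1 smaller for PG over SLG and 6 greater and 12 smaller for SLG over SMG. Among all genes it moved the share of calls that were higher to 10.3% (against 49.8% with TMM) for PG over SLG tissue, 95.9% (47.6%) for SLG over SMG tissue, 86.4% (51.0%), 78.9% (46.7%) and 83.0% (46.6%) for PG, SLG and SMG organoids over tissue, and 90.7% (58.2%) and 16.4% (54.3%) for the interactions of PG over SLG and SLG over SMG. The shift of the median of all genes was 0.10 and 0.12 for PG and SLG over SMG organoids.

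A filter that dropped each gene at 0 in 1 or more libraries tested fewer genes. It gave 2 higher for DAM over GEM, 5 higher for PG over SLG tissue, 3, 3 and 8 lower for PG, SLG and SMG organoids over tissue, and 9 greater for PG over SLG and 2 smaller for SLG over SMG in the interaction. Each called gene that was still tested kept its call, so the falls in these counts came from genes no longer tested. No share of all genes under this filter is given.

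Without 1 library at a time, DAM over GEM gave 1 to 2 higher and 0 to 0 lower. Organoids gave 4 to 6 higher and 1 to 2 lower for PG over SLG, 11 to 12 and 2 to 2 for PG over SMG, and 8 to 10 and 2 to 3 for SLG over SMG. Tissue gave 1 to 4 higher and 11 to 15 lower for PG over SLG (1 higher without SLG tissue 2), 1 to 2 and 8 to 12 for PG over SMG (2 higher without either SMG tissue library), and 8 to 9 and 4 to 7 for SLG over SMG (4 lower without SMG tissue 2). Organoids over tissue gave 22 to 23 higher and 5 to 8 lower in PG (5 lower without PG tissue 2), 14 to 16 and 7 to 9 in SLG, and 13 to 14 and 11 to 14 in SMG. The interactions gave 11 to 14 greater and 2 to 2 smaller, 14 to 17 and 3 to 3, and 8 to 11 and 3 to 6 (3 smaller without SLG tissue 2 or SMG organoid 1). DAM over GEM gave 2 higher without either GEM library, and PG over SLG organoids 2 lower without PG organoid 3.

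With the replicate number as a block, fitted to the groups whose count columns carry the labels' numbers, SLG over SMG organoids gave 9 higher and 3 lower, and tissue gave 3 and 11, 1 and 9, and 9 and 8. SLG organoids over tissue gave 14 and 7, SMG organoids over tissue 13 and 12, and the interaction of SLG over SMG 10 greater and 4 smaller. Among groups whose columns carry the labels' numbers, deviations of same-numbered libraries correlated between -0.0659 and 0.1096. With 2 libraries per group this cannot settle whether they share more than a number. No paired analysis was possible for PG or GEM organoids because their count columns share only 1 number with the groups compared. Taken in column order, deviations correlated at 0.3578 for SMG organoids in GEM and DAM, and at 0.2599 for SMG and PG organoids in DAM. The columns of either pair share only 1 number. For GEM and PG organoids, whose columns carry the same numbers, the correlation was 0.2698. Not all of those numbers are in the labels, and whether these libraries share an origin was not settled.

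Depth limits low genes, since 1 count was worth up to 0.0448 CPM in tissue.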
